A study of Mus musculus with 9 samples.

Results

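Mitochondrially encoded transcripts were followed in the livers of 9 mice after an intravenous injection of an adeno-associated virus vector or of buffer. The members are all features whose symbol starts with mt-, and 32 of the 26388 features across the 9 count tables met that rule. They comprise 2 ribosomal RNAs, 13 protein-coding transcripts and 17 transfer RNAs. A single table listed 21 to 28 of them, and 18 were listed in every table. In the GENCODE M21 annotation the mouse mitochondrial chromosome holds 37 genes, and the 5 that no table listed are all transfer RNA genes (mt-Ts1, mt-Td, mt-Tk, mt-Tg and mt-Th). All mice were male C57BL/6 mice aged 8 weeks. Mice 3, 6 and 9 received AAVrh.10mCherry, a vector of the rh.10 serotype named for the red fluorescent protein mCherry. Mice 2, 5 and 8 received AAVrh.10Null, a vector of the same serotype, and mice 1, 4 and 7 received PBS, phosphate-buffered saline. The dose, the promoter and the time between injection and collection are not given in the sources used here. Each label names a separate mouse, and every mouse gave 1 liver library made by Drop-seq, in which messenger RNA of single cells is caught on barcoded beads through its poly(A) tail and counted by unique molecular identifiers (UMIs).

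Mitochondria keep a small circular genome that encodes subunits of the respiratory chain and of ATP synthase, together with the ribosomal and transfer RNAs needed to translate them. Both strands are transcribed as long precursors from which the tRNAs are cut out, which releases the rRNAs and mRNAs between them, and most of these then receive a short poly(A) tail. Hepatocytes are rich in mitochondria. A high share of mitochondrial UMIs in a droplet is also a common sign of a damaged cell that has lost cytoplasmic RNA. Stretches of mitochondrial DNA have been copied into the nuclear genome during evolution, and reads from such a stretch can match both places.

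A barcode is the tag of 1 bead and stands for at most a few cells. After barcodes with under 200 detected genes were set aside, 44898 of 48000 barcodes remained, with 291338 (mouse 7) to 11220147 (mouse 1) UMIs per mouse. Mouse 7 (PBS) kept 550 of 3600 barcodes, and each other mouse lost at most 17. No limit was set on the mitochondrial share, since it is the measured quantity. Barcode sequences ending in an undetermined base made up 0.0972% and 0.278% of those of mice 2 and 8, 4.83% of those of mouse 7 and 25.4% to 27.5% of those of the other mice. Malat1, a nuclear RNA, stood at 15016 to 23010 CPM (UMIs of a gene per 1000000 UMIs) in mice 2, 7 and 8 and at 2769 to 10265 CPM in the others. Any 2 libraries shared 1 to 10 barcode sequences.

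The mitochondrial members held 5164502 of 53047251 UMIs, or 9.74%. Their levels per length were very unequal, and part of that inequality followed a block of nuclear copies. In the GRCm38 (mm10) annotation of GENCODE M21, 7 unprocessed pseudogenes lie side by side on chr1:24611535-24616197, minus strand, a span of 4663 bases. Aligned to the mitochondrial transcripts at an identity of at least 98%, they cover nearly all of mt-Co2, mt-Atp6, mt-Co3, mt-Nd3 and mt-Nd4l, the end of mt-Co1 and the start of mt-Nd4. The stretches below show how close the copies are. They are read from GENCODE M21 transcripts, and capitals mark bases that differ between the mitochondrial transcript and the copy.

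mt-Co2: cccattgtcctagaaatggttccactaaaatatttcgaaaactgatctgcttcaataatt

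Gm28661: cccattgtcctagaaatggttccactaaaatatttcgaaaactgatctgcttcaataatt

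mt-Nd3: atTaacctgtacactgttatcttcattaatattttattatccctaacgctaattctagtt

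Gm28438: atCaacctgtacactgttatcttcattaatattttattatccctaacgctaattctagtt

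mt-Co1: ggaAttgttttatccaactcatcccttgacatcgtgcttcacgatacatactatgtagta

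Gm29216: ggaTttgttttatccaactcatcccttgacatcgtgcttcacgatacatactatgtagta

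Over the whole aligned length, mt-Co2 (chrM:7013-7696, a core subunit of cytochrome c oxidase) matched Gm28661 (chr1:24614885-24615565) at 681 of its 684 bases with no mismatch. mt-Nd3 (chrM:9459-9806, a subunit of complex I) matched Gm28438 (chr1:24612775-24613119) at 345 of 348 bases with 1 mismatch, T3C, counted from the first base of the mitochondrial transcript. mt-Co1 (chrM:5328-6872, the catalytic subunit of cytochrome c oxidase) matched Gm29216 (chr1:24615706-24616197) over its last 483 of 1545 bases with 1 mismatch, A1066T. mt-Atp6 (chrM:7927-8607, ATP synthase) matched Gm10925 over 678 bases, mt-Co3 (chrM:8607-9390, cytochrome c oxidase) matched Gm28437 over 783 bases, and mt-Nd4l (chrM:9877-10173, complex I) matched Gm10222 over 294 bases, all 3 with no mismatch. mt-Nd4 (chrM:10167-11544, complex I) matched Gm28439 over its first 876 of 1378 bases with no mismatch, and none of its last 300 bases, the end next to the poly(A) tail, was covered. mt-Atp8 (chrM:7766-7969, a small subunit of ATP synthase) overlaps the start of mt-Atp6, and its last 43 of 204 bases are identical to the first bases of Gm10925. No annotated copy aligned to any other member at this identity over at least 60 bases, and none of the others shared an exact run of at least 20 bases with these 7 copies.

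The members that matched these copies at their 3′ end had the fewest UMIs among the protein-coding transcripts, with the exception of mt-Co1. Over all 9 mice mt-Co2 had 16 UMIs, mt-Atp6 15, mt-Co3 16, mt-Nd4l 2 and mt-Atp8 1. mt-Nd3 had 2448. Against these, mt-Cytb (chrM:14145-15288, cytochrome b of complex III) had 504593 UMIs, mt-Nd1 250709, mt-Nd2 216520 and mt-Nd5 171990, all subunits of complex I with no aligned copy. mt-Nd4 with its uncovered 3′ end had 190849 UMIs.

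mt-Co2 had no UMI in mice 2, 4 and 7, where 3 counts, the limit that 0 allows, correspond to 0.529, 0.563 and 10.3 CPM. Intervals and limits of this kind cover counting error only. The copies themselves had 1 UMI (mouse 7) to 62 UMIs (mouse 9) per mouse for all 7 together, few beside the abundant members but more than several of the members they match. Over all 9 mice Gm10925 had 63 UMIs against 15 for mt-Atp6, Gm28437 52 against 16 for mt-Co3, Gm28661 28 against 16 for mt-Co2 and Gm10222 11 against 2 for mt-Nd4l, whereas Gm28438 had 6 against 2448 for mt-Nd3. The sequence shared with the copies and the low counts thus occurred together in mt-Co2, mt-Atp6, mt-Co3, mt-Nd4l and mt-Nd3, and over its last 43 bases in mt-Atp8. The ends of mt-Nd4l and mt-Atp8 also overlap the start of the next gene on the same strand, mt-Nd4 and mt-Atp6. Whether RNA of these 2 members ends in a poly(A) tail of its own was not tested. How the authors' pipeline treated reads that match both places is not given in the sources used here, and its part in these counts was not tested.

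The covered member mt-Co1 had 114571 UMIs although its last 300 bases lie wholly within Gm29216. Its longest run of A, 7 bases from base 789 in chrM:5328-6872, lies upstream of the aligned stretch, which starts at base 1063. That run is shown in capitals with its flanks, beside the longest run in mt-Rnr2, the large mitochondrial rRNA, since the beads catch RNA by stretches of A.

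mt-Co1: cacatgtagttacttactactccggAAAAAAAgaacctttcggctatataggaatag

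mt-Rnr2: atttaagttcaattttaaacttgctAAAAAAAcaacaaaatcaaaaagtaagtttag

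mt-Rnr2 (chrM:1094-2675) has 4 runs of at least 6 A in 1582 bases, and its longest starts at base 395. Among the rRNA and protein-coding members, runs of at least 6 A were found in mt-Rnr2, mt-Nd1, mt-Nd2, mt-Co1, mt-Nd4 and mt-Nd5, all abundant. The abundant mt-Cytb and mt-Rnr1 have no such run. Neither have mt-Nd6 and the low-count mt-Co2, mt-Atp8, mt-Atp6, mt-Co3, mt-Nd3 and mt-Nd4l. The longest run of these classes is 8, in mt-Nd2. The tRNA mt-Tr also has a run of 8, with 1 UMI in all mice together. Read positions were not used here, so the place at which these RNAs were caught was not tested. The first 161 bases of mt-Atp8 lie in the 233 bases (chrM:7694-7926) between the aligned stretches of mt-Co2 and mt-Atp6. On chromosome 1, 233 bases separate Gm10925 from Gm28661 too, with no annotated gene in them. The unlisted tRNA genes mt-Ts1, mt-Td, mt-Tk and mt-Tg and the rare mt-Tr also lie between members that these copies cover. A genome sequence was not used here to look for unannotated copies.

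**Figure D1:**
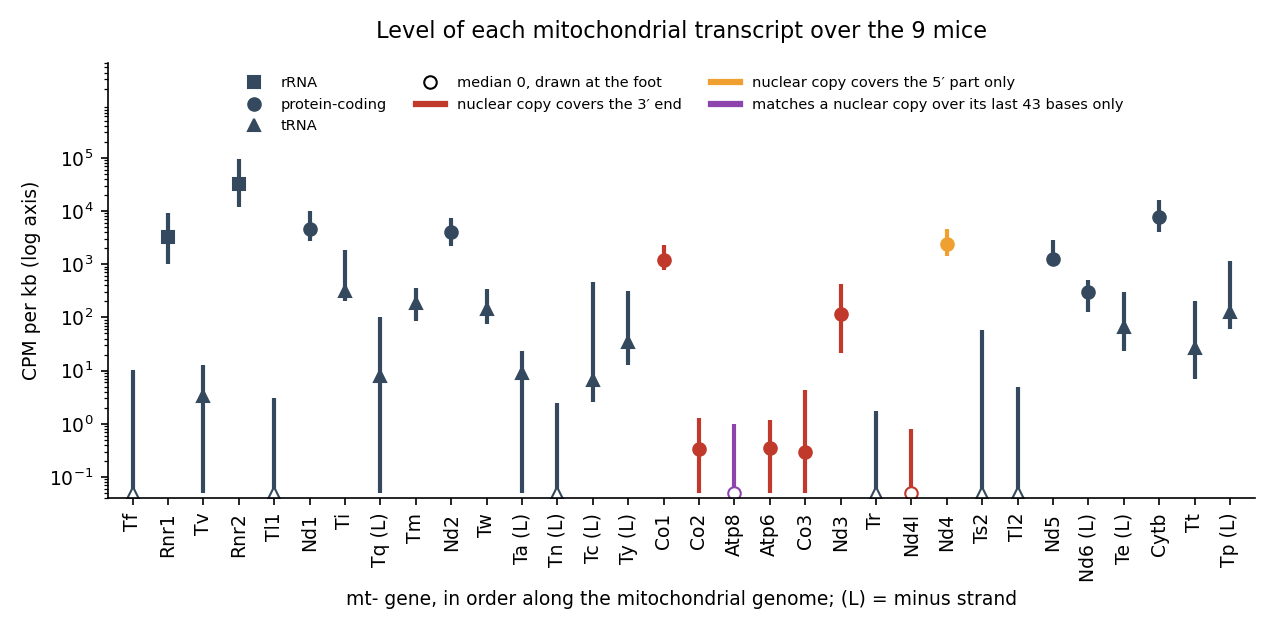
CPM per kb (log axis) of each member with at least 1 UMI, in order along the mitochondrial genome; points are medians and lines the range over 9 mice, red lines mark members whose 3′ end a nuclear copy covers, and the purple line marks mt-Atp8, which matches a copy over its last 43 bases only. mt-Rnr2 stands highest at a median of 32501 CPM per kb, and mt-Co2, mt-Atp6, mt-Co3, mt-Nd4l and mt-Atp8 lie at the foot. The tRNAs mt-Tf, mt-Tl1, mt-Tn, mt-Tr, mt-Ts2 and mt-Tl2 have their medians of 0 at the foot too. No annotated copy aligned to them over at least 60 bases, but mt-Ts2 has only 59 bases. mt-Tr lies between the covered mt-Nd3 and mt-Nd4l, and unannotated copies were not looked for.

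Levels per length gave the following order among the 10 rRNA and protein-coding members with UMIs in every mouse. The median level was 32501 CPM per kb for mt-Rnr2, 7633 for mt-Cytb, 4670 for mt-Nd1, 3985 for mt-Nd2 and 3201 for mt-Rnr1, the small rRNA. It was 2435 for mt-Nd4, 1235 for mt-Nd5, 1175 for mt-Co1, 303 for mt-Nd6 and 114 for mt-Nd3. mt-Rnr2 was above mt-Cytb, mt-Cytb above mt-Nd1 and mt-Nd1 above mt-Nd2 in 9 of 9 mice. mt-Co1 was above mt-Nd6, and mt-Nd6 above mt-Nd3, in 9 of 9 mice too. mt-Nd2 exceeded mt-Rnr1, and mt-Rnr1 exceeded mt-Nd4, in 5 of 9 mice each, so the order of these neighbours was not set beyond the spread between mice. mt-Nd4 was above mt-Nd5, and mt-Nd5 above mt-Co1, in 8 of 9.

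mt-Nd6 (chrM:13552-14070, complex I) is the only protein-coding member on the minus strand. Its level of 125 to 504 CPM per kb was below that of mt-Nd5 beside it on the plus strand in every mouse, at 0.0305 to 0.0975 UMIs per mt-Nd5 UMI. Whether counting was by strand is not given in the sources used here, so reads from the overlapping ends of these 2 genes cannot be told apart.

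The rRNAs dominated the mitochondrial UMIs. mt-Rnr2 made up 68.2%, 82.9% and 58.5% of the mitochondrial UMIs of AAVrh.10mCherry mice 3, 6 and 9. Its share was 59.1%, 59.9% and 68.3% in AAVrh.10Null mice 2, 5 and 8 and 71.1%, 54.9% and 70.5% in PBS mice 1, 4 and 7. Mouse 6 stood highest and mouse 4 lowest, and the 3 groups overlapped.

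mt-Rnr1, transcribed from the same strand just upstream of mt-Rnr2, had far fewer UMIs. mt-Rnr2 UMIs per mt-Rnr1 UMI numbered 14.1, 16.7 and 12.7 in AAVrh.10mCherry mice. This ratio was 16.0, 12.4 and 29.9 in AAVrh.10Null mice and 18.1, 19.8 and 29.1 in PBS mice. The AAVrh.10mCherry mice all lay below the PBS mice, and the AAVrh.10Null mice spanned both, from the lowest to the highest ratio of the series.

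Of all UMIs, 6.27%, 17.8% and 10.2% were mitochondrial in AAVrh.10mCherry mice 3, 6 and 9. In AAVrh.10Null mice 2, 5 and 8 the share was 8.26%, 8.58% and 17.3%. In PBS mice 1, 4 and 7 it was 7.21%, 3.43% and 9.41%. Mouse 6 and mouse 8 stood well above all others, mouse 4 well below, and each vector group overlapped the PBS group. The group means were 11.4% ± 5.87 for AAVrh.10mCherry, 11.4% ± 5.12 for AAVrh.10Null and 6.69% ± 3.02 for PBS (SD, n = 3 each). AAVrh.10mCherry minus PBS was 4.75 percentage points and 1.56 without mouse 6. AAVrh.10Null minus PBS was 4.69 points and 1.73 without mouse 8. In this total each vector group's difference thus rested largely on 1 mouse, and the vector groups differed from each other by 0.0656 points. These sums over the members carry no p-value. Summed over a liver, fewer cells of a type cannot be told apart from less RNA per cell.

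**Figure D2:**
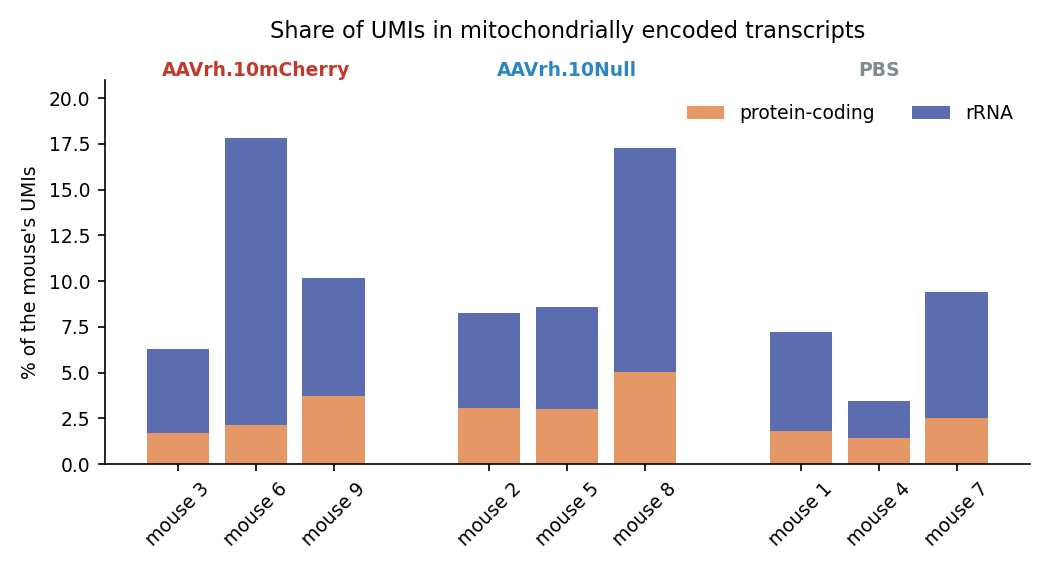
Percentage of each mouse's UMIs in protein-coding mitochondrial transcripts (orange) and mitochondrial rRNAs (blue), with tRNAs too rare to draw; each bar is 1 mouse, by group. Mouse 6 at 17.8% and mouse 8 at 17.3% are the highest bars, and mouse 4 at 3.43% is the lowest.

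Mice 6 and 8 reached nearly the same total with different make-ups. rRNA was 87.8% of the mitochondrial UMIs of mouse 6 and 70.6% of those of mouse 8. The rRNA share was 73.1%, 87.8% and 63.1% in AAVrh.10mCherry mice, 62.8%, 64.8% and 70.6% in AAVrh.10Null mice and 75.1%, 57.7% and 72.9% in PBS mice, and the groups overlapped. Protein-coding transcripts alone were 2.16% of the UMIs of mouse 6, close to the 1.69% of mouse 3, whereas they were 5.06% of those of mouse 8, the highest of the series. They were 3.06% and 3.02% in AAVrh.10Null mice 2 and 5, 3.75% in AAVrh.10mCherry mouse 9 and 1.79%, 1.45% and 2.52% in PBS mice 1, 4 and 7. On this part the AAVrh.10Null mice all lay above the PBS mice, and the AAVrh.10mCherry mice overlapped both groups.

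Across single barcodes the median mitochondrial share was 5.90%, 14.3% and 10.1% in AAVrh.10mCherry mice 3, 6 and 9. It was 7.72%, 8.24% and 17.9% in AAVrh.10Null mice 2, 5 and 8, and 6.39%, 2.85% and 4.23% in PBS mice 1, 4 and 7. Every AAVrh.10Null mouse lay above every PBS mouse on this measure, and AAVrh.10mCherry mouse 3 lay below PBS mouse 1. The differences between group means were 5.62 points for AAVrh.10mCherry minus PBS and 6.80 points for AAVrh.10Null minus PBS. With each barcode thinned to 300 UMIs they were 5.56 and 6.78 points, with 26 shallower barcodes of mouse 7 left out. Among barcodes with at least 500 genes they shrank to 1.33 and 0.736 points. In mouse 7 that filter left 38 barcodes with a median of 12.7%. It kept unlike parts of the livers, all 5196 barcodes of mouse 1 and 3972 of 3998 of mouse 3. In mice 2, 6 and 8 it kept 1027 of 7195, 1321 of 5583 and 1330 of 7188, and mice 4, 5 and 9 lay between.

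Barcodes over 20% mitochondrial were concentrated in mouse 8 with 39.1%, mouse 6 with 27.2% and mouse 7 with 10.5%, and they were at most 1.79% in each other mouse. Over 50% were 185 barcodes of mouse 6, 3 of mouse 8, 1 of mouse 7 and none elsewhere. In mouse 8 the whole distribution was shifted, with its 5th percentile at 7.64% and its 95th at 30.5%. In mouse 6 the upper tail was longer, at 4.33% and 41.9%. The share did not move one way with depth. It was 21.7% in barcodes of mouse 6 with 2000 or more UMIs and 16.5% in those with 500 to 1000 UMIs. The same bins gave 8.49% and 19.0% in mouse 8.

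**Figure D3:**
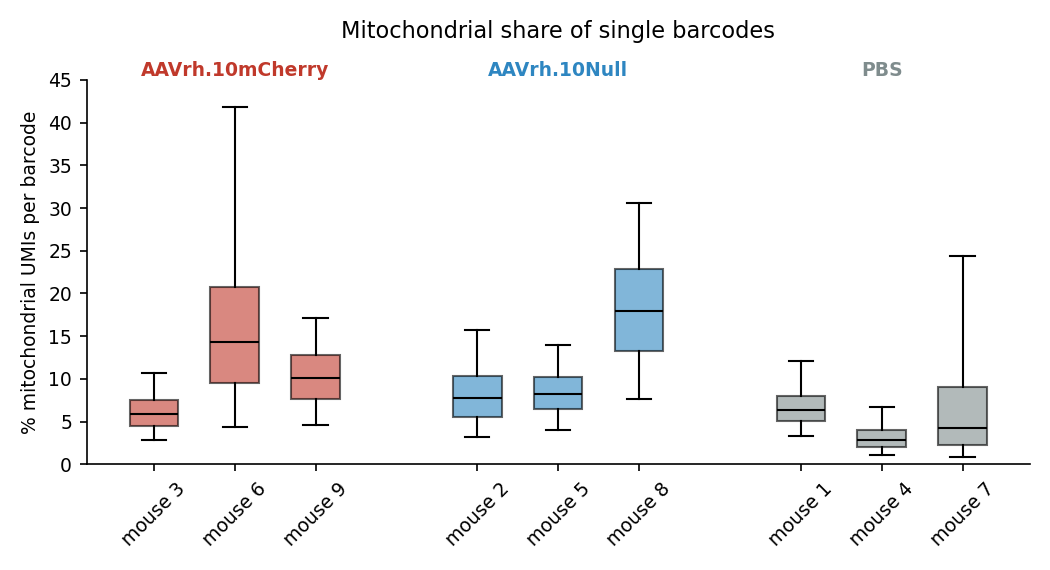
Percentage of mitochondrial UMIs per barcode with at least 200 genes; boxes span the 25th to 75th percentile with the median as a line, whiskers the 5th to 95th, 1 box per mouse. The whiskers of mouse 6 reach 41.9%, and the box of mouse 8 lies above those of the other mice except mouse 6.

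For single members, edgeR's quasi-likelihood test was applied to UMIs summed per mouse, with p-values adjusted by the Benjamini-Hochberg method over all 11321 genes that passed its filter on low counts. This filter kept 17 of the 32 members, and the other 15 are described by their counts only. No member passed an adjusted p of 0.05 in any comparison. Of all genes tested, 0.00883% passed in AAVrh.10Null against PBS, 0% in AAVrh.10mCherry against PBS and in both vectors together against PBS, and 0.0265% in AAVrh.10mCherry against AAVrh.10Null. DESeq2 and limma-voom also called no member. Of the 11321 genes, DESeq2 called 44 in AAVrh.10Null against PBS, 2 in AAVrh.10mCherry against PBS and 7 for both vectors. It called 0 in AAVrh.10mCherry against AAVrh.10Null, and limma-voom called 0 in every comparison. With no filter on low counts, edgeR tested 26282 genes and all 32 members, and called 4 members in AAVrh.10Null against PBS (1.16% of all genes), 2 in AAVrh.10mCherry against PBS (0.388%), 3 for both vectors (0.556%) and 1 in AAVrh.10mCherry against AAVrh.10Null (0.575%). Unadjusted p-values under 0.05 were reached by 6 of 17 members in AAVrh.10Null against PBS, where 12.9% of all genes did so. That count was 0 of 17 without mouse 8 (8.46% of all genes), 1 of 18 without mouse 4 (9.71%), 1 of 16 among barcodes with at least 500 genes (18.5%) and 11 of 18 without mouse 2 (8.66%). Such p-values were reached by 1 of 17 in AAVrh.10mCherry against PBS (6.57% of all genes) and 3 of 17 for both vectors (10.8%). In AAVrh.10mCherry against AAVrh.10Null 1 of 17 did so (7.3%). In the same order, leaving out 1 mouse gave 0 to 4, 0 to 6 and 0 to 6 members. The share of all genes then ran over 3.21% to 11.5%, 7.39% to 13.3% and 4.41% to 9.39%. The highest counts stood beside 11.5% (4 of 18, without mouse 3), 13.3% (6 of 18, without mouse 3) and 5.25% (6 of 17, without mouse 9).

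In AAVrh.10Null against PBS all 17 members had a log2 change above 0, as had 48.8% of all genes tested, and their median was 0.91 against -0.01 for all genes. This median was 0.40 without mouse 8 and 0.52 among barcodes with at least 500 genes, a filter that kept unlike parts of the livers. mt-Cytb stood at 11840.5, 11344 and 18064 CPM in AAVrh.10Null mice 2, 5 and 8 and at 6589, 4585 and 8732 CPM in PBS mice 1, 4 and 7. The groups did not overlap. Its log2 change was 1.05 (SE 0.36, edgeR adjusted p = 0.266). mt-Nd1 showed the same separation, with 5382, 4761 and 9751 CPM in AAVrh.10Null mice and 2845, 2664 and 4469 CPM in PBS mice, and a log2 change of 1.003 (SE 0.38, edgeR adjusted p = 0.303).

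mt-Rnr1 was the third member without overlap, at 3057, 4144 and 3942 CPM in AAVrh.10Null mice and 2835, 949.9 and 2283 CPM in PBS mice. Of all genes tested, 12.3% were higher in AAVrh.10Null without overlap, against these 3 of 17 members, and 6.87% were lower without overlap, against 0 of 17. mt-Nd4, mt-Nd5, mt-Nd2 and mt-Co1 had log2 changes of 0.93, 0.89, 0.86 and 0.71, mt-Rnr2 0.69, mt-Nd6 0.52 and mt-Nd3 1.43, all with groups that overlapped. Each was lowest on leaving out mouse 8, at 0.70 for mt-Nd4, 0.57 for mt-Nd5, 0.50 for mt-Nd2, 0.40 for mt-Co1, 0.12 for mt-Rnr2, 0.07 for mt-Nd6 and 0.30 for mt-Nd3. Without that mouse mt-Nd1 stood at 0.59 and mt-Cytb at 0.78. Levels of the AAVrh.10Null mice 2 and 8 cannot be told apart from the library difference seen in their barcode ends and Malat1. Without mice 2 and 8, which leaves mouse 5 as the single AAVrh.10Null mouse, assumed to vary like the others, the members' median was 0.42 with 15 of 19 above 0. Without mouse 7 as well it was 0.69 with 16 of 18 above 0.

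In AAVrh.10mCherry against PBS, mt-Rnr1 had the largest difference relative to its error. Its level was 3037, 8835 and 4715 CPM in AAVrh.10mCherry mice 3, 6 and 9 and 2835, 949.9 and 2283 CPM in PBS mice 1, 4 and 7. All 3 vector mice were higher, mouse 3 by little. The log2 change was 1.30 (SE 0.43, edgeR adjusted p = 0.717) and 0.83 without mouse 6. Of all genes tested, 14.4% were higher without overlap, against this 1 member, and 2.37% were lower, against 0 members. mt-Rnr1 was also the 1 member without overlap for both vectors together against PBS, where 6.24% of all genes were higher and 1.08% lower in this way. All 17 members had a log2 change above 0 in that comparison, as had 50.2% of all genes. The 2 comparisons with PBS share the PBS mice. mt-Nd5, at 2043, 3958 and 5129 CPM in AAVrh.10mCherry mice and 2253, 1675 and 1902 CPM in PBS mice, overlapped and had a log2 change of 0.79 (SE 0.38, edgeR adjusted p = 0.717), or 0.50 without mouse 9. mt-Cytb was at 5785, 5957 and 11944 CPM in AAVrh.10mCherry mice, of which mouse 9 alone lay above the PBS range, with a log2 change of 0.12. The members' median was 0.38 against 0.02 for all genes, with 15 of 17 above 0 (51.8% of all genes), and -0.16 without mouse 9.

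In AAVrh.10mCherry against AAVrh.10Null, 3 of 17 members lay above 0 (50% of all genes) with a median of -0.55. No member was higher or lower without overlap, beside 12% and 4.55% of all genes. mt-Cytb had the lowest unadjusted p, with a log2 change of -0.93 (SE 0.36, edgeR adjusted p = 0.642). Without mouse 8 the members' median was 0.23.

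The relative use of single members, as their share of the mitochondrial UMIs, gave no p under 0.05 in 40 two-sided exact permutation tests over mice (10 members in 4 comparisons, unadjusted). With 3 mice against 3 the smallest p possible is 0.1, and with 6 against 3 it is 0.0119. mt-Rnr1 made up 4.84%, 4.96% and 4.62% of mitochondrial UMIs in AAVrh.10mCherry mice. Its share was 3.70%, 4.83% and 2.28% in AAVrh.10Null mice and 3.93%, 2.77% and 2.43% in PBS mice. AAVrh.10mCherry mice were close together and all above PBS mice, by 1.76 points (exact permutation p = 0.1), which was the 1 comparison of the 40 without overlap. In both vectors against PBS, the exact permutation p of mt-Rnr1 was 0.131 with all mice. It was 0.0357 without mouse 8, the vector mouse with the lowest mt-Rnr1 share of the series. The 40 tests were repeated without each mouse in turn, and each repeat gave 0 to 1 p under 0.05.

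Among the protein-coding members mt-Cytb made up 34.3%, 27.6% and 31.8% of protein-coding mitochondrial UMIs in AAVrh.10mCherry mice, 38.7%, 37.6% and 35.7% in AAVrh.10Null mice and 36.7%, 31.6% and 34.6% in PBS mice. It was lower in every AAVrh.10mCherry mouse than in every AAVrh.10Null mouse, by 6.10 points (-6.10, exact permutation p = 0.1). This was the 1 of 32 such comparisons without overlap. mt-Nd1 made up 15.8% to 19.3% and mt-Nd2 12.9% to 17.1% over the 9 mice, the narrowest ranges among the abundant ones.

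mt-Nd5 and mt-Co1 varied more, and both were lowest in the same 3 mice. mt-Nd5 made up 12.1%, 18.3% and 13.7% of protein-coding mitochondrial UMIs in AAVrh.10mCherry mice 3, 6 and 9, 6.96%, 12.3% and 9.77% in AAVrh.10Null mice 2, 5 and 8 and 12.6%, 11.6% and 7.54% in PBS mice 1, 4 and 7. The 3 lowest values are those of mice 2, 7 and 8, at 6.96% to 9.77%, against 11.6% to 18.3% in the other 6. mt-Co1 split the same mice, at 5.03% to 7.20% against 7.39% to 11.0%. The other 6 protein-coding members did not separate them. mt-Nd5 UMIs per mt-Cytb UMI were 0.180 to 0.274 in mice 2, 7 and 8 and 0.327 to 0.665 in the other 6. This split of the mice was chosen after the values were seen. It runs along the barcode ends and Malat1 levels given above. Mice 2 and 8 are AAVrh.10Null, mouse 7 is PBS and no AAVrh.10mCherry mouse is among them, so the split is partly confounded with group. What it rests on was not tested.

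**Figure D4:**
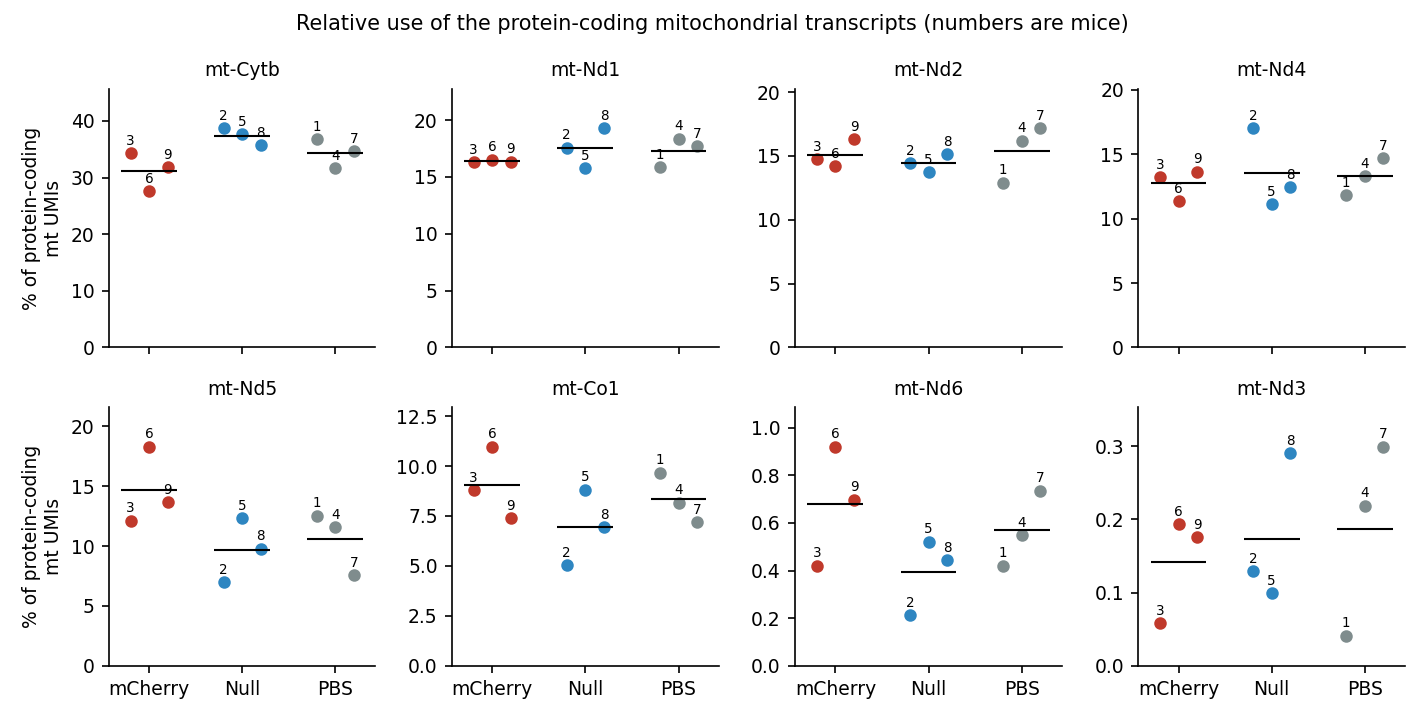
Share of protein-coding mitochondrial UMIs in each of 8 members, in percent, by group; each point is 1 mouse with its number, and lines are group means. mt-Nd5 is lowest in mice 2, 7 and 8 (6.96% to 9.77%), and mt-Cytb is lower in AAVrh.10mCherry than in AAVrh.10Null mice without overlap.

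Transfer RNAs were 0.0433% to 0.266% of mitochondrial UMIs. mt-Ti (isoleucine) had 1914 UMIs over the 9 mice, mt-Tp (proline) 1271, mt-Tm (methionine) 760, mt-Tw (tryptophan) 596, mt-Ty (tyrosine) 375, mt-Te (glutamate) 279 and mt-Tt (threonine) 157. Each of the other 10 listed had at most 91. The most frequent plus-strand ones, mt-Ti, mt-Tm and mt-Tw, border mt-Nd1 and mt-Nd2, and mt-Ti (chrM:3706-3774) overlaps the end of mt-Nd1 (chrM:2751-3707). Reads of such neighbours cannot be told apart from the tRNA itself without the read positions.

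Minus-strand tRNAs were high in a few livers of different groups. The 7 of them together stood at 7.92, 22.4 and 86.4 CPM in AAVrh.10mCherry mice 3, 6 and 9, 16.8, 17.0 and 120 CPM in AAVrh.10Null mice 2, 5 and 8, and 11.3, 14.8 and 75.5 CPM in PBS mice 1, 4 and 7. Mice 7, 8 and 9, 1 of each group, stood apart from the other 6. This was not particular to the minus strand. Plus-strand tRNAs together were highest in the same mice, at 175, 134 and 101 CPM in mice 7, 8 and 9. They stood at 90.1 CPM in mouse 2 and at 27.4 to 54.8 CPM in the others. In mice 8 and 9 the minus-strand level came largely from mt-Tp, at 77.0 and 55.2 CPM against 4.05 to 13.7 CPM elsewhere. In mouse 7 it rested on 22 UMIs. mt-Tc (cysteine) alone had 9 UMIs there, or 30.9 CPM, against at most 1.59 CPM in the other mice.

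Within a mouse, the make-up of mitochondrial RNA differed between barcodes with a high and a low mitochondrial share. Barcodes were ranked on a random 50% of their mitochondrial UMIs, and the make-up was read from the remaining 50%, in the top and the bottom 25% of each mouse. The rRNA share was higher in the top 25% in 8 of 9 mice, with a median difference of 6.64 points, and lower in mouse 4 (54.3% against 57.7%). Most of the UMIs used for the ranking were rRNA, so barcodes rich in rRNA ranked higher. The split takes out counting error only, and the direction of the rRNA difference was thus partly set by the ranking. mt-Nd5 was a larger share of protein-coding mitochondrial UMIs in 9 of 9 mice (median 1.37 points) and so was mt-Co1 (1.36 points). mt-Cytb was a smaller one in 9 of 9 (-0.95 points).

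Other RNAs moved with this ranking. Malat1 in CPM of the non-mitochondrial UMIs was lower in the top 25% in 8 of 9 mice, at a median ratio of 0.332, and in mouse 7 it was higher, at 32432 against 10144. Alb, encoding albumin and the hepatocytes' most typical transcript, was higher in 9 of 9 mice at a median ratio of 1.39. The part of cell type and of nuclear RNA in these differences was not tested.

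Cell classes were taken from a clustering that left out the mitochondrial features, named by marker genes. Of the retained barcodes 42267 were hepatocyte-like, 756 endothelial-like, 243 T/NK-like, 223 Kupffer/macrophage-like, 213 stellate/fibroblast-like, 98 B-like and 26 cholangiocyte-like, and 1072 stayed unnamed. A class was compared in a mouse only with at least 20 barcodes, always with the hepatocyte-like barcodes of that mouse.

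Endothelial-like barcodes had a lower mitochondrial share than hepatocyte-like ones in 8 of 9 mice, with a median difference of -1.80 points. The exception was mouse 1, at 7.33% against 7.23%. In mouse 6 the 2 classes stood at 8.75% and 18.2%, and in mouse 8 at 14.7% and 17.4%. The endothelial-like share was 2.94% in mouse 4, lowest of the series as in its hepatocyte-like barcodes at 3.53%. T/NK-like barcodes were lower in 4 of 4 mice (-2.72 points), and Kupffer/macrophage-like ones in 5 of 6 (-2.41 points). Stellate/fibroblast-like barcodes were lower in 6 of 6 (-1.52 points). B-like barcodes reached 20 in mouse 4 alone, at 3.30% against 3.53%, and cholangiocyte-like ones in no mouse.

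The rRNA share of mitochondrial UMIs was higher in endothelial-like than in hepatocyte-like barcodes in 9 of 9 mice, with a median difference of 5.90 points, and higher in Kupffer/macrophage-like ones in 6 of 6 (8.55 points). In T/NK-like barcodes it was lower in 4 of 4 (-1.19 points). In stellate/fibroblast-like barcodes it went both ways, higher in mice 2, 4 and 9 and lower in mice 1, 3 and 6. Alb in endothelial-like barcodes stood at 38.1% to 81.1% of its level in hepatocyte-like barcodes of the same mouse. In T/NK-like and Kupffer/macrophage-like ones it stood at 40.2% to 72.0% and 42.8% to 73.0%, and in stellate/fibroblast-like ones at 70.3% to 89.3%. Albumin is made by hepatocytes, and the part of hepatocyte RNA in the values of the other classes was not tested. Several hepatocyte-like clusters came mostly from 1 mouse, among them 2 with over 99% of their barcodes from mouse 6.

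**Figure D5:**
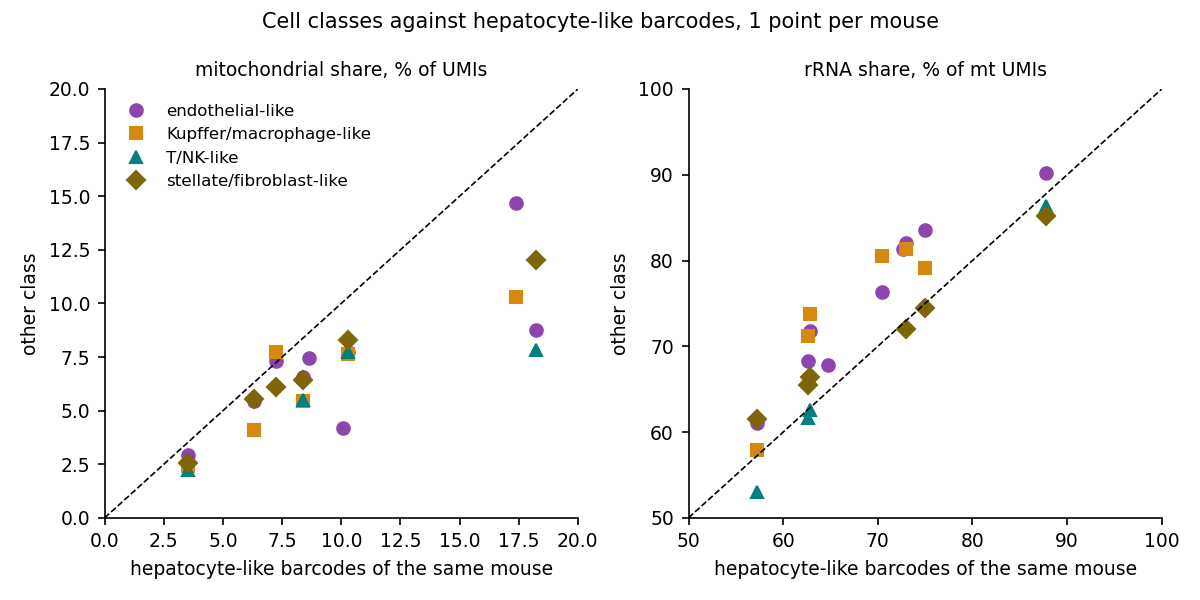
Mitochondrial share of UMIs (left) and rRNA share of mitochondrial UMIs (right), in percent, of endothelial-like, Kupffer/macrophage-like, T/NK-like and stellate/fibroblast-like barcodes against hepatocyte-like barcodes of the same mouse; the dashed line marks equal values. Endothelial-like points lie below the line on the left in 8 of 9 mice and above it on the right in 9 of 9.

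Nuclear genes that build, express or regulate mitochondria were read in the same fits, by list. No gene of any list passed an adjusted p of 0.05 in any comparison. The median of all genes tested was -0.01 in AAVrh.10Null against PBS and 0.02 in AAVrh.10mCherry against PBS. In AAVrh.10Null against PBS, 74 of 78 tested nuclear-encoded subunits of the respiratory chain and ATP synthase lay below 0, with a median log2 change of -0.31, whereas all 17 mitochondrial members lay above 0. In AAVrh.10mCherry against PBS, 75 of 78 lay below 0 (median -0.31), against 15 of 17 mitochondrial members above 0. Sdhd, a membrane anchor of complex II, had -0.76 (SE 0.24, edgeR adjusted p = 0.225) and Uqcrc1, a core subunit of complex III, -0.59 (adjusted p = 0.338) in AAVrh.10Null against PBS. The symbol pattern also took in Atp5sl (0.78), which is not a subunit of ATP synthase.

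Of the proteins of the mitochondrial ribosome, 72 of 77 lay below 0 in AAVrh.10Null against PBS (median -0.24) and 69 of 77 in AAVrh.10mCherry against PBS (median -0.15). Cytosolic ribosomal proteins, tested beside them, lay below 0 in 80 of 81 (median -0.46) and 77 of 81 (median -0.25), so lower values were not particular to mitochondrial genes.

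Genes that transcribe, replicate and process the mitochondrial genome were spread about 0. In AAVrh.10Null against PBS 13 of 27 lay above 0 (median -0.02), among them Twnk, the replicative helicase, at 0.64 (edgeR adjusted p = 0.383), and Polrmt, the mitochondrial RNA polymerase, at 0.54 (adjusted p = 0.456). In AAVrh.10mCherry against PBS 11 of 27 lay above 0 (median -0.04). Of the 8 regulators of mitochondrial biogenesis and oxidation, 7 lay above 0 in each of these comparisons, with medians of 0.59 and 0.24. Ppargc1b, a coactivator of mitochondrial genes, had 1.12 (SE 0.40, edgeR adjusted p = 0.285), Ppara, a receptor that drives fatty acid oxidation, 0.55 (adjusted p = 0.376) and Ppargc1a 0.81 (adjusted p = 0.45) in AAVrh.10Null against PBS.

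Genes of mitochondrial stress lay below 0 in 7 of 11 (median -0.11) and above 0 in 7 of 11 (median 0.14) in the same 2 comparisons, with Hspe1, a mitochondrial chaperonin, at -0.25 and Ddit3, a stress transcription factor, at 0.48 in AAVrh.10Null against PBS. RNAs retained in the nucleus lay above 0 in 5 of 6 in AAVrh.10Null against PBS (median 1.02), Neat1 and Kcnq1ot1 at 1.14 and 1.53. Haemoglobin genes, a sign of red cells, lay above 0 in 4 of 4 (median 1.48). The part of nuclear RNA and red cells in the values of the mitochondrial members was not tested.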

How the data were processed

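Each mouse has 1 table, in which the authors deposited the unscaled UMI count of every listed gene in every barcode. Libraries were Drop-seq libraries read on an Illumina HiSeq, per the labels' protocols. The deposited readme names bcl2fastq 2.19, and the submitters' processing notes name mm10 and Seurat. How reads were aligned and counted, on which annotation, and how barcodes were chosen is not given in the sources used here.

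Barcodes with at least 200 genes were kept, with no doublet removal and no limit on mitochondrial UMIs. CPM are relative to all UMIs of a mouse, and levels per kb use GENCODE M21 gene lengths. Counts were summed per mouse and tested with edgeR 4.0.16 (TMM, filterByExpr, quasi-likelihood, 9 mice in 1 fit) in R 4.3.3, after the test had been run on simulated data. Single shares were compared by exact permutation. DESeq2 1.42.0 and limma 3.58.1 were alternatives. Nuclear copies were found with BLAST 2.17.0 (identity of at least 98% over at least 60 bases) among annotated transcripts. Clustering used scanpy 1.11.5 on 2000 variable genes, 30 components and Leiden resolution 1, without mitochondrial features, and clusters were named with at least 3 of the listed markers at 4-fold or more, or as hepatocyte-like by the level of hepatocyte markers. Clusters with markers of other cell types were clustered again.

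The genes named are all mt- features, up to 3 genes with the lowest p-values per pathway list in AAVrh.10Null against PBS, Malat1, Alb and the nuclear copies. The members and lists were chosen with earlier results of these data known. P-values measure the spread between mice.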

Additional observations from a re-analysis of the deposited data

Results flagged for a closer look

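Barcodes with under 200 genes were not part of any comparison. The 17 such barcodes of mouse 6 (AAVrh.10mCherry) held 7987 UMIs, of which 69.3% were mitochondrial, above the 5.77% of the 3050 such barcodes of mouse 7, the only PBS mouse with at least 100 UMIs among its removed barcodes. Groups of 3 mice are too small for the search for single outlying mice.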

How the results depend on the processing

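No paired or blocked analysis was run, since the labels name no pairs of mice across groups. The mouse numbers run in turn through PBS, AAVrh.10Null and AAVrh.10mCherry. Whether mice with neighbouring numbers were handled together is not given in the sources used here. No member was called under other scaling, DESeq2, limma-voom, other barcode filters or without any 1 mouse. Few genes of any kind were called there, at most 47 of 9532 tested (AAVrh.10Null against PBS with at least 500 genes). With no filter on low counts, edgeR called 4 members higher in AAVrh.10Null against PBS (mt-Nd3, mt-Tp, mt-Tq and mt-Ty), 2 in AAVrh.10mCherry against PBS (mt-Rnr1 and mt-Tp), 3 in both vectors against PBS (mt-Rnr1, mt-Tp and mt-Ty) and 1 lower in AAVrh.10mCherry against AAVrh.10Null (mt-Nd3), among 306, 102, 146 and 151 genes called of 26282 tested; the cause was not tested. Total counts without scaling factors moved the median of all genes to 0.16 and 0.11 in the AAVrh.10mCherry comparisons with PBS and AAVrh.10Null, where the members' medians were 0.52 and -0.38.

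With at least 500 genes the median barcode difference was 0.736 points for AAVrh.10Null, 1.33 for AAVrh.10mCherry and 1.03 for both vectors, each minus PBS. Leaving out 1 mouse gave 3.49 to 8.59, 3.52 to 7.72 and 4.55 to 7.26 points. The log2 change of mt-Cytb in AAVrh.10mCherry against PBS turned to -0.088 with at least 500 genes, -0.069 without mouse 4 and -0.28 without mouse 9, and leaving out 1 mouse gave at most 0.33. Exact tests of relative use gave 0 to 1 p-values under 0.05 on leaving out a mouse. The comparison without mice 2, 7 and 8 was added after seeing the data. At 291338 UMIs, mouse 7 limits the rare members.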
